A study of Mus musculus with 10 samples.

Results

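Integrins are cell surface receptors made of an alpha and a beta chain, and laminins are the 3-chain proteins that form the sheet-like core of basement membranes. The genes described here were the protein-coding genes whose symbol begins with Itga, Itgb or with Lama, Lamb or Lamc and a digit. This rule gave 42 of the 54532 genes measured, of which 22046 were protein-coding. They comprised 27 integrin subunits, 11 laminin chains and 4 genes that carry an integrin name without being a subunit. Of the subunits, 18 belong to receptors for matrix, including the platelet chain Itga2b, and 9 belong to receptors used mainly by leukocytes.

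The study asked what increased pulmonary flow (IPF) does to the growing lung. Messenger RNA of whole lung from wild-type C57BL/6J mice at postnatal day 30 (P30) was sequenced in 10 libraries, 5 per group. In the IPF group a fistula between the abdominal aorta and the inferior vena cava was made by needle puncture at P7, and in the sham group the operation was done without the puncture. Neither group carried an engineered allele, by the methods both operations were done under isoflurane with buprenorphine given afterwards, and the labels number the libraries as replicates of a group without saying that each is 1 mouse. Values are FPKM, fragments scaled by gene length and by the library's mapped fragments, so that levels can be compared between genes.

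Library depth ranged from 16250190 to 19026843 reads in IPF and from 15483046 to 17818542 in sham. Female and male markers divided the groups completely. Xist, the transcript behind X inactivation, ranged from 26.8 to 43.2 FPKM in IPF and from 0.030 to 0.077 in sham. Ddx3y, a Y-linked gene, was at 0 in all 5 IPF libraries and at 14.3 to 21.4 FPKM in sham. Sex and surgery therefore cannot be told apart in any value given here. The clock gene Dbp also divided the groups, with 1.74 to 3.49 FPKM in IPF and 23.2 to 29.3 in sham, and the part of sex or of collection time in the results was not tested. Sham replicate 1 stood apart, with a mean Spearman correlation of 0.912 with the other libraries against 0.929 to 0.932 for each of the others.

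A cell reads the matrix around it through pairs of integrin chains. The beta1 chain joins many alpha chains to make receptors for collagen, laminin or fibronectin. The alphav chain joins several beta chains, and some of these receptors release active TGF-beta from its latent form. Leukocytes use beta2, beta7 and alpha4 integrins to stop on vessel walls and enter tissue. Each laminin holds an alpha, a beta and a gamma chain, and in the lung forms with alpha3 and beta3 lie under epithelium while alpha4 and alpha5 forms are found in vessel and alveolar basement membranes.

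The genes were compared on log2(FPKM + 0.1) with limma, a linear model with shared variance, across all 20448 genes with a mean of at least 0.1 FPKM. A gene was called when its Benjamini-Hochberg adjusted p over all these genes was under 0.05. Of the 42 members, 41 were tested. The exception was Itgad, a partner of the leukocyte beta2 chain, with 1 to 7 reads in each IPF library and 0 to 6 in each sham library.

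Between IPF and sham, 4 of 41 members were called, which was 9.76% of them against 5.85% of all genes tested. Itga1 and Lama1 rose, where 3.71% of all genes were called higher. Itga9 and Lamb3 fell, where 2.14% were called lower. The median log2 fold change of the members was -0.00275, and that of all genes was 0.0016. A log2 fold change above 0 was seen in 20 of 41 members and in 50.4% of all genes. Only Lama1 among the members also passed an absolute log2 fold change of 1, a limit that 1.14% of all genes passed together with the test.

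**Figure D1:**
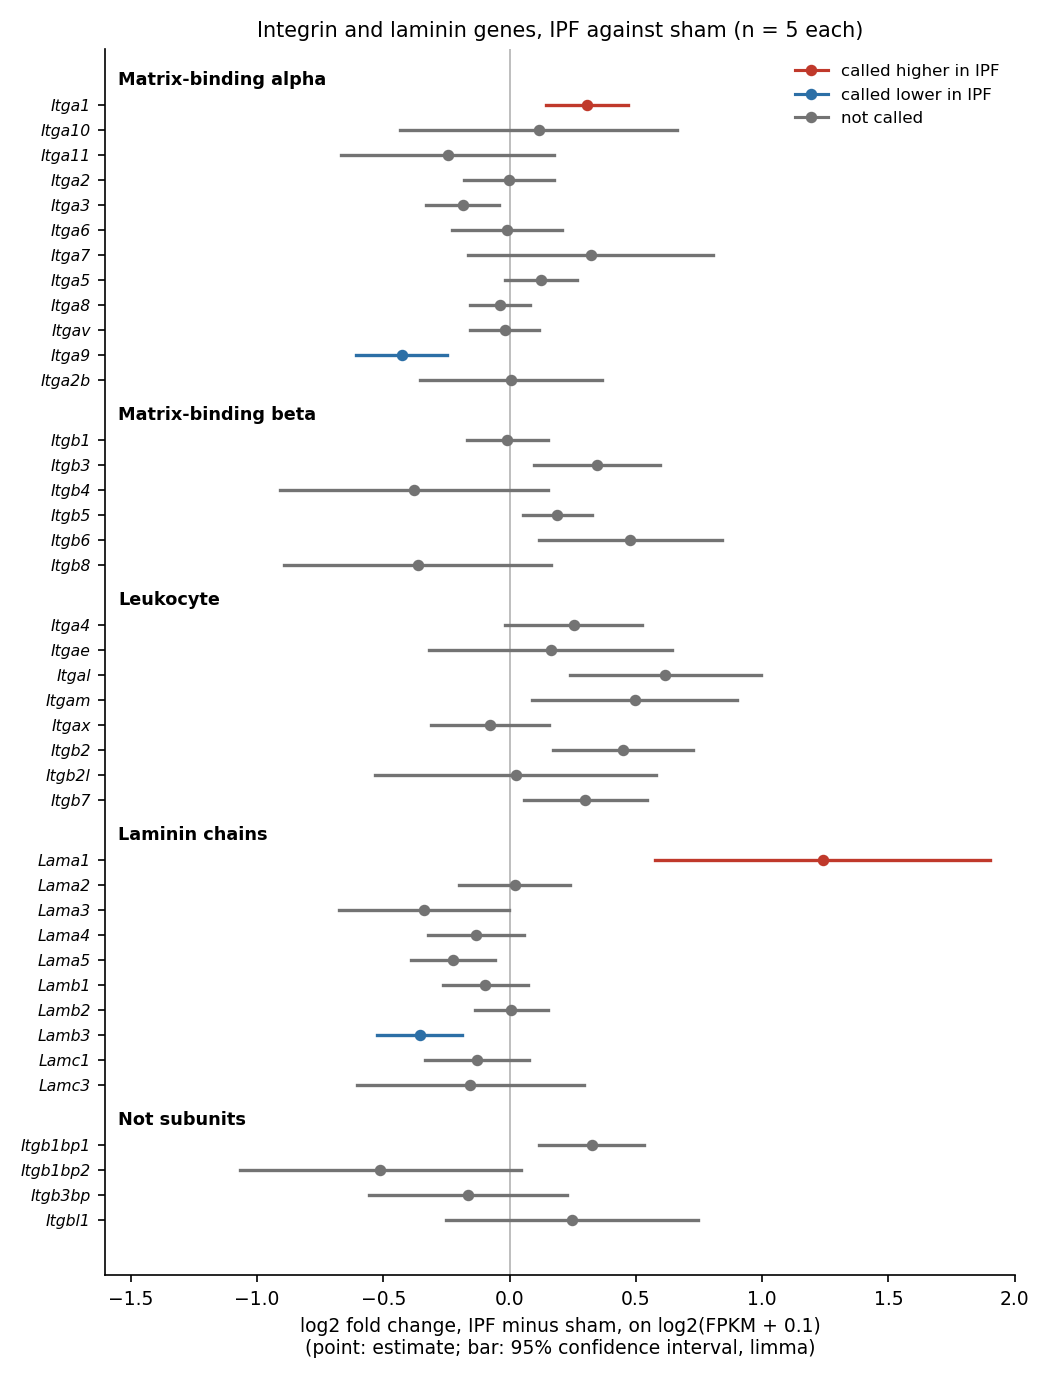
Log2 fold change of 40 tested members, IPF minus sham, on log2(FPKM + 0.1), with points for the limma estimate and bars for its 95% confidence interval (n = 5 per group). Itga1 and Lama1 in red were called higher, Itga9 and Lamb3 in blue were called lower, and the other members shown in grey were not called.

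The bases ahead of the annotated start are shown for Itga1 and Lamb3, since for Lamb3 that start lies inside the deposited gene interval. Any bearing of this on the reads counted was not tested. Itga1 (ENSMUSG00000042284) lies on the minus strand of GRCm38 at chr13:114953096-115101964, and its RefSeq start site coincides with the gene's first base in the deposited annotation. Lamb3 (ENSMUSG00000026639) lies on the plus strand at chr1:193207699-193343878, and RefSeq gives it 2 start sites, the first 94295 bases inside that interval and the second 249 bases further on. The first is used below. The 100 bases before each of these starts, 5′ to 3′ on the gene's strand, come from RefSeq promoter sequences of GRCm38.p6, at chr13:115101965-115102064 and chr1:193301894-193301993.
Itga1: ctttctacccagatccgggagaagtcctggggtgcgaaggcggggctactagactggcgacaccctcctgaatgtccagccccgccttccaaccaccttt
Lamb3: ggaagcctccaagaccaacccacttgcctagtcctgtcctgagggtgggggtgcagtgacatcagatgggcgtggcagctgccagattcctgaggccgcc
The GC content was 61% for Itga1 and 63% for Lamb3. In windows from 250 bases before to 50 after these starts, neither gene held the E-box CACGTG, the GC box GGGCGG, the TATA box TATAAA or the AP-1 letters TGANTCA on either strand. In the same window these letters occurred in 7.24%, 35.9%, 14.2% and 7.93% of 27025 promoters, and in 0, 12, 0 and 2 of the 27 member promoters in the table. The 2 with the AP-1 letters were Itgax and Itga9, the latter at a start inside its gene interval.

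Among collagen receptors, Itga1 rose. It encodes the alpha1 chain, which with beta1 binds collagen, including the collagen IV of basement membranes. The IPF libraries held 31.0, 25.3, 27.3, 29.4 and 26.9 FPKM in replicate order, and the sham libraries 25.6, 21.4, 21.0, 21.2 and 23.7. Thus 4 of 5 IPF libraries were above every sham library, and IPF replicate 2 lay just under sham replicate 1. The means were 28.0 ± 2.22 and 22.6 ± 2.00 FPKM (SD, n = 5), a log2 fold change of 0.31 (SE 0.07, 95% interval 0.14 to 0.47, limma adjusted p = 0.0340).

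With any 1 library left out, the log2 fold change of Itga1 stayed between 0.27 and 0.35, but its call was not always kept. The call was lost without IPF replicate 1, 3 or 4 (limma adjusted p = 0.0803, 0.0544 and 0.0887). It was also lost without sham replicate 2, 3 or 4 (0.0821, 0.0858 and 0.0813). In these fits 3.66 to 5.57% of all genes were called, against 5.85% with all libraries. The summed level of 10 markers of capillary endothelium ranged from 1447 to 1540 FPKM in sham and from 1611 to 1816 in IPF. Of the 10, 2 were called higher, where 3.71% of all genes were. The log2 fold change was above 0 in 7 and below 0 in 3, with a median of 0.19. The part of these markers in the Itga1 difference was not tested. In bulk tissue, a change in the number of cells of a type and a change in RNA per cell cannot be told apart. Pelo, a protein-coding gene inside the Itga1 interval on the same strand, had 4.01 FPKM in IPF and 3.32 in sham, and reads shared between the 2 genes could not be separated here.

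The other collagen-binding chains were not called. Itga2, the alpha2 chain, had 6.44 FPKM in both groups, with a log2 fold change of -0.003 and a 95% interval of -0.18 to 0.18. Itga10 was at 0.713 ± 0.173 FPKM in IPF and 0.674 ± 0.253 in sham. Itga11, a chain of fibroblasts, was at 0.406 ± 0.116 and 0.490 ± 0.0556 FPKM, with 4 of 5 IPF libraries below every sham library and IPF replicate 3 above them all.

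Itga9 fell. Its product, the alpha9 chain, pairs with beta1, binds tenascin-C and VCAM1, and is known for its part in lymphatic valves. The gene (ENSMUSG00000039115) lies on the plus strand at chr9:118606690-118901003. The IPF libraries held 21.0, 21.8, 25.1, 23.6 and 19.6 FPKM, and the sham libraries 32.2, 26.8, 29.8, 27.6 and 33.0. Every IPF library was below every sham library.

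The means of Itga9 were 22.2 ± 2.18 FPKM in IPF and 29.9 ± 2.72 in sham, a difference of -0.43 on the log2 scale (SE 0.08, 95% interval -0.61 to -0.25, adjusted p = 0.0120 from limma). The call held with any 1 library left out, with limma adjusted p between 0.0108 and 0.0369. An antisense gene inside its interval, Gm2415, had 2.22 FPKM in IPF and 3.18 in sham, and whether counting used the strand is not given in the sources used here. Groups that did not overlap were seen in 5 of 41 members and in 7.29% of all genes. IPF was the lower group in 4 of these members, against 2.77% of all genes, and the higher in 1, against 4.52%.

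**Figure D2:**
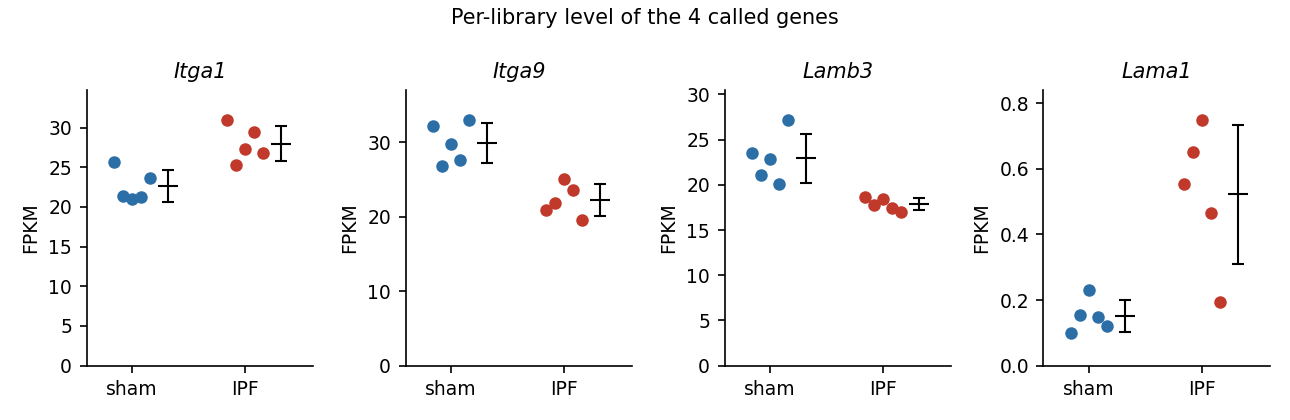
FPKM of the 4 called members in each library, with 1 point each and the mean ± SD beside each group (n = 5). The IPF and sham points of Itga9 and Lamb3 do not overlap, while Itga1 has 1 IPF library (25.3) inside the sham range and Lama1 has 1 (0.193).

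The alpha chains of laminin receptors were not called. Itga3, the alpha3 chain of epithelium, had the highest mean of the alpha chains over the 10 libraries and the smallest adjusted p of these receptors. It was at 55.3, 48.8, 54.1, 51.9 and 53.6 FPKM in IPF and at 66.5, 55.5, 59.7, 55.3 and 63.5 in sham. The groups did not overlap, though IPF replicate 1 and sham replicate 4 were nearly equal, with a log2 difference of -0.19 (limma adjusted p = 0.135). Itga6, whose chain pairs with beta1 or beta4, had a log2 fold change of -0.01 with a 95% interval of -0.23 to 0.21. Itga7, a chain known from muscle, was at 2.05 ± 0.730 FPKM in IPF and 1.55 ± 0.209 in sham (adjusted p = 0.466 from limma).

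The chains that recognise the RGD motif of fibronectin and similar ligands were not called either. Itga5, the fibronectin receptor chain, was at 19.4 ± 0.866 FPKM in IPF and 17.8 ± 1.52 in sham. Itga8, a chain of smooth muscle and interstitial cells that binds nephronectin, was at 53.9 ± 2.19 and 55.3 ± 3.15 FPKM. Itgav, shared by all the alphav receptors, was at 9.99 ± 0.444 and 10.1 ± 0.751 FPKM, with a 95% interval of -0.16 to 0.12 on the log2 scale. The platelet chain Itga2b was at 2.05 ± 0.460 and 2.03 ± 0.353 FPKM.

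Itgb1, the partner of the matrix-binding alpha chains other than Itga2b, was the most abundant member. It held 281, 285, 290, 297 and 326 FPKM in IPF and 275, 296, 297, 295 and 326 in sham, so the groups spanned nearly the same range. Its log2 fold change was -0.01, and the 95% interval of -0.17 to 0.15 bounds the difference that these libraries allow. Itgb1 made up 78.3 to 81.2% of the FPKM summed over matrix-binding beta chains in IPF and 80.5 to 83.1% in sham. Within the summed matrix-binding alpha chains that pair with beta1, which leave out Itga4, the share of Itga9 was 8.11 to 10.4% in IPF and 11.6 to 12.6% in sham, and that of Itga1 was 11.1 to 13.2% and 8.89 to 10.0%. These shares are a description of the same FPKM values and were not tested.

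Of the beta chains that pair with alphav, none was called, and 3 had IPF means above sham. Itgb6, the epithelial chain of a receptor that activates latent TGF-beta, held 9.73, 9.98, 10.8, 9.01 and 5.94 FPKM in IPF and 5.37, 6.07, 5.46, 7.36 and 7.98 in sham. Thus 4 of 5 IPF libraries were above every sham library, and IPF replicate 5 lay within the sham range. On the log2 scale Itgb6 differed by 0.48 (95% interval 0.11 to 0.84, limma adjusted p = 0.129). Without IPF replicate 5 it was 0.62 and was called (limma adjusted p = 0.0126). The other 9 fits with 1 library left out did not call it, with adjusted p up to 0.257 without sham replicate 1.

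Itgb3, which pairs with alphav or with the platelet chain, was at 7.21 ± 0.951 FPKM in IPF and 5.65 ± 0.761 in sham (adjusted p = 0.107 from limma). The summed level of 10 platelet markers, of which 9 were tested and 0 called, ranged from 27.1 to 37.6 FPKM in IPF and from 21.2 to 33.3 in sham. Itgb5, a vitronectin receptor chain, was at 57.7 ± 3.06 and 50.7 ± 3.65 FPKM (adjusted p = 0.111). Itgb8, the chain of another receptor that activates latent TGF-beta, was low, at 0.268 ± 0.106 and 0.360 ± 0.0632 FPKM.

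Itgb4, the chain that anchors epithelial cells at hemidesmosomes, depended on a single library. IPF replicates 1, 2, 4 and 5 held 1.06, 1.34, 1.17 and 1.07 FPKM, below the lowest sham value of 1.58, while IPF replicate 3 held 2.90, above the highest sham value of 2.09. Over all libraries the difference was -0.38 on the log2 scale (limma adjusted p = 0.431) and, without IPF replicate 3, -0.63 (limma adjusted p = 0.01995). It was not called in the other 9 fits with 1 library left out, with adjusted p up to 0.608 without IPF replicate 1. Replicate 3 was also the IPF library with the highest summed level of 8 secretory and basal airway markers, 27456 FPKM, where the other IPF libraries ranged from 3713 to 13245 and sham from 11526 to 22992. The part of airway RNA in the Itgb4 values was not tested.

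No leukocyte integrin subunit was called among the 8 tested, where 5.85% of all genes were called. An unadjusted limma p under 0.05 was seen in 4 of the 8, all with IPF higher. Of all 20448 genes, 2291 had such a p with IPF higher and 1698 with IPF lower, together 19.5%. The log2 fold change was above 0 in 7 of 8, against 50.4% of all genes, and the median was 0.28, against 0.0016. With limma voom on recovered reads, 2 of the 8 were called (Itgal and Itgb2), where 7.17% of all genes were called by that fit.

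Itgb2 encodes the beta2 chain shared by the leukocyte receptors LFA-1 and Mac-1. It held 25.2, 24.0, 26.2, 32.6 and 28.8 FPKM in IPF and 16.8, 20.2, 20.8, 16.8 and 26.3 in sham. Sham replicate 5 lay above 3 IPF libraries, and the other 4 sham libraries lay below all of them. For Itgb2 the log2 fold change came to 0.45 (SE 0.13, limma adjusted p = 0.0649), and without sham replicate 5 it was 0.55 and called (limma adjusted p = 0.0174). The other 9 fits with 1 library left out did not call Itgb2, with adjusted p up to 0.151 without IPF replicate 4.

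Itgal, the alpha chain of LFA-1, which binds ICAM proteins on endothelium, had the largest log2 fold change of the leukocyte subunits tested. It held 8.05, 6.90, 7.80, 9.87 and 11.2 FPKM in IPF and 5.27, 4.94, 6.01, 4.31 and 8.12 in sham. Again sham replicate 5 was the only sham library inside the IPF range. For Itgal it came to 0.62 (SE 0.17, limma adjusted p = 0.0630), and without sham replicate 5 it was 0.75 and called (limma adjusted p = 0.0202). In the other 9 such fits Itgal was not called, with adjusted p up to 0.150 without IPF replicate 4. A fit blocked on replicate number also called it (limma adjusted p = 0.0351).

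**Figure D3:**
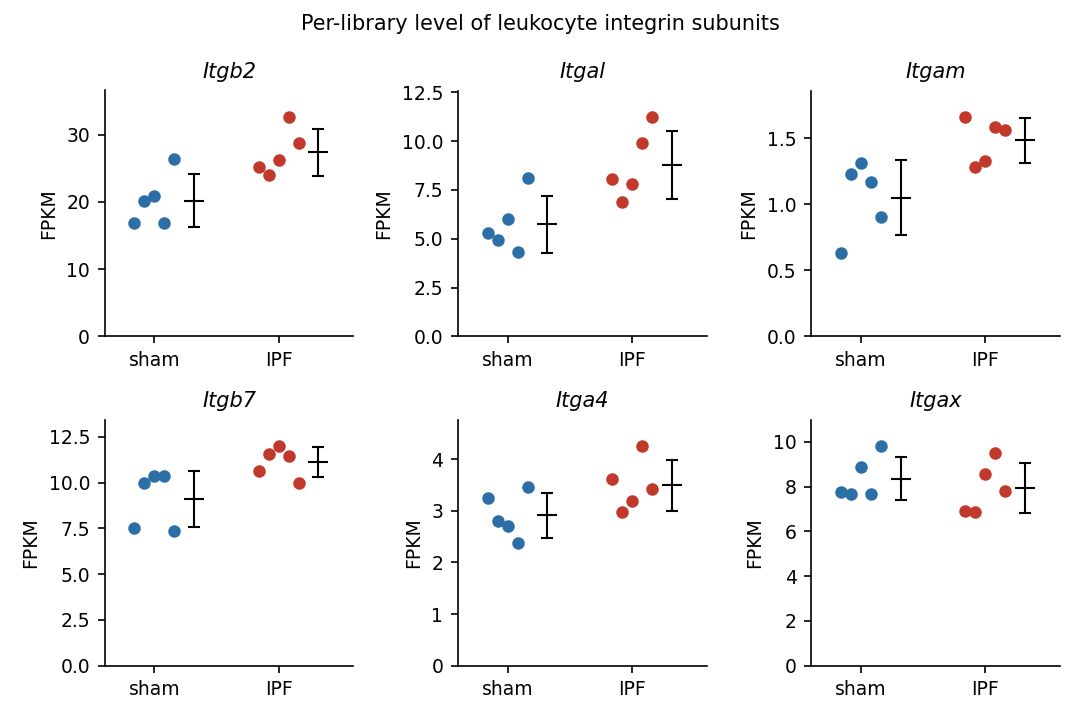
FPKM of leukocyte integrin subunits in each library, with 1 point each and the mean ± SD beside each group (n = 5). For Itgb2 and Itgal, sham replicate 5 (26.3 and 8.12 FPKM) is the highest sham point and lies within the IPF range, and for Itgax the IPF mean of 7.94 is close to the sham mean of 8.36.

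The remaining leukocyte subunits spanned a wide range. Itgam, the alpha chain of Mac-1 on neutrophils and monocytes, was at 1.48 ± 0.169 FPKM in IPF and 1.05 ± 0.282 in sham, with 4 of 5 IPF libraries above every sham library (adjusted p = 0.157 from limma). Itgb7, the partner of alpha4 in gut homing and of alphaE, was at 11.1 ± 0.798 and 9.10 ± 1.54 FPKM (adjusted p = 0.155). Itga4 was at 3.49 ± 0.492 and 2.91 ± 0.435 FPKM, and Itgae, the alphaE chain of T cells and dendritic cells in epithelium, was at 1.68 ± 0.580 and 1.45 ± 0.276 FPKM. Itgb2l, a paralog of Itgb2, was at 0.498 ± 0.186 and 0.481 ± 0.154 FPKM.

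Itgax was the leukocyte subunit with a log2 fold change below 0. It encodes CD11c, carried in lung by alveolar macrophages and dendritic cells, and had a log2 fold change of -0.08 (95% interval -0.31 to 0.16). Of the FPKM summed over the alpha partners of beta2, Itgax made up 37.7 to 48.4% in IPF and 51.9 to 58.3% in sham. Itgal made up 44.0 to 54.3% in IPF and 32.7 to 42.9% in sham. The shares did not overlap between the groups for either gene and were not tested. Because these genes make up most of the sum, a larger share of Itgal goes with a smaller share of Itgax.

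Leukocyte markers were read beside these values as lists, with no test of a list as a whole. Of all genes, 3.71% were called higher and 50.4% had a log2 fold change above 0. The 6 general leukocyte markers, of which 4 were called higher, summed to 144 to 170 FPKM in IPF and to 85.0 to 128 in sham. B cell markers summed to 37.4 to 56.0 FPKM in IPF and to 20.4 to 33.0 in sham, with 7 of 8 called higher. NK cell markers summed to 13.5 to 21.4 and to 6.13 to 11.6 FPKM, with 4 of 8 called higher.

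T cell markers summed to 19.1 to 25.1 FPKM in IPF and to 12.1 to 19.2 in sham, which overlapped narrowly. Of the 8, 1 was called higher and all had a log2 fold change above 0. Of the monocyte markers 5 of 8 were called higher and 2 had a log2 fold change below 0. Their sums overlapped, at 314 to 459 FPKM in IPF and 380 to 452 in sham. Dendritic cell markers, with 0 of 8 called and 7 above 0 in log2 fold change, summed to 46.3 to 62.9 and to 37.4 to 49.1 FPKM.

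The lists for 2 other myeloid types overlapped as well. Alveolar macrophage markers summed to 381 to 596 FPKM in IPF and 350 to 541 in sham, with 0 of 10 called. Neutrophil markers ranged from 57.1 to 306 FPKM in IPF and from 17.04 to 89.3 in sham, with IPF replicate 5 highest and the other 4 IPF libraries at 57.1 to 87.9. By limma 0 of 10 neutrophil markers were called and 5 had an unadjusted p under 0.05, all 10 had a log2 fold change above 0, and the median was 0.93. None of the marker genes in these lists was at 0 in all libraries, and their part in the leukocyte integrin values was not tested.

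Among the laminin chains, 2 of 11 were called, against 5.85% of all genes. A log2 fold change below 0 was seen in 8 of 11, against 49.6% of all genes, and the median was -0.13, against 0.0016. Sham replicate 1, which stood apart from the other libraries, was the highest library for Lama4, Lama5, Lamb1 and Lamc1. Without it their log2 fold changes went from -0.13 to -0.08, from -0.22 to -0.18, from -0.10 to -0.04 and from -0.13 to -0.06, in that order. Lamb3 fell. It encodes the beta3 chain, found in the laminin that anchors epithelium. The IPF libraries held 18.6, 17.8, 18.4, 17.4 and 17.05 FPKM, and the sham libraries 23.5, 21.1, 22.9, 20.1 and 27.2. All 5 IPF libraries were below all 5 sham libraries, and the IPF values were much closer to each other.

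The means of Lamb3 were 17.8 ± 0.655 FPKM in IPF and 22.9 ± 2.72 in sham, a log2 fold change of -0.35 (SE 0.08, 95% interval -0.52 to -0.19, limma adjusted p = 0.0202). With any 1 library left out, the log2 fold change stayed between -0.40 and -0.29. The call was lost without IPF replicate 2 or 4 or sham replicate 3 (limma adjusted p = 0.0507, 0.0563 and 0.0504). It was also lost without both IPF replicate 3 and sham replicate 1 (0.0719). The interval of Lamb3 in the file, which starts ahead of the sequence printed above, holds Hsd11b1 and G0s2 on the opposite strand. Hsd11b1 had 84.7 FPKM in IPF and 67.8 in sham, and G0s2 had 69.7 and 52.2, both higher in IPF in mean while Lamb3 was lower. The noncoding 4930570N18Rik on the same strand had 0.547 and 0.926 FPKM, and Gm38118 on the opposite strand had 0.381 and 0.670, both lower in IPF in mean.

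Lama3, the alpha3 chain found in the same laminin, was not called. It held 17.1, 13.7, 14.7, 16.1 and 16.9 FPKM in IPF and 23.4, 15.9, 17.6, 16.2 and 28.6 in sham. Sham replicates 1 and 5 were high and the other sham libraries lay near the IPF range. On the log2 scale Lama3 differed by -0.34 (limma adjusted p = 0.254). Sham replicates 1 and 5 were also the highest sham libraries for Lamb3. The summed levels of alveolar type 1 markers, 1782 to 2306 FPKM in IPF and 1976 to 2170 in sham, and of alveolar type 2 markers, 16922 to 19077 and 12883 to 20347, overlapped, with no marker called in either list. The low type 2 sum in sham was that of sham replicate 1, and the other sham sums ranged from 18738 to 20347. Of the IPF libraries only replicate 3 (19077) lay in that range. The log2 fold change was above 0 in 4 of the 8 type 2 markers.

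Lama1 rose from a low level. It encodes the alpha1 chain, known mainly from embryonic basement membranes, and lies at chr17:67697259-67822647 on the plus strand (ENSMUSG00000032796). The IPF libraries held 0.552, 0.651, 0.748, 0.465 and 0.193 FPKM, and the sham libraries 0.1003, 0.156, 0.232, 0.149 and 0.122. IPF replicates 1 to 4 were above every sham library, and IPF replicate 5 was within the sham range. These levels rested on 33 to 137 reads per IPF library and 16 to 36 per sham library.

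The means of Lama1 were 0.522 ± 0.212 FPKM in IPF and 0.152 ± 0.0499 in sham. The log2 fold change came to 1.24 (SE 0.30, 95% interval 0.58 to 1.90, limma adjusted p = 0.0348), and it was 1.67 with limma voom on recovered reads. The call was lost in 8 of 10 fits that left out 1 library, while over all 10 the log2 fold change stayed between 1.11 and 1.49. The 8 left out IPF replicates 1, 2, 3 and 4 (limma adjusted p = 0.0815, 0.0910, 0.0700 and 0.0758) or sham replicates 1, 2, 4 and 5 (0.0741, 0.0686, 0.0693 and 0.0716). Without IPF replicate 5 the log2 fold change came to 1.49 (limma adjusted p = 0.00358).

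**Figure D4:**
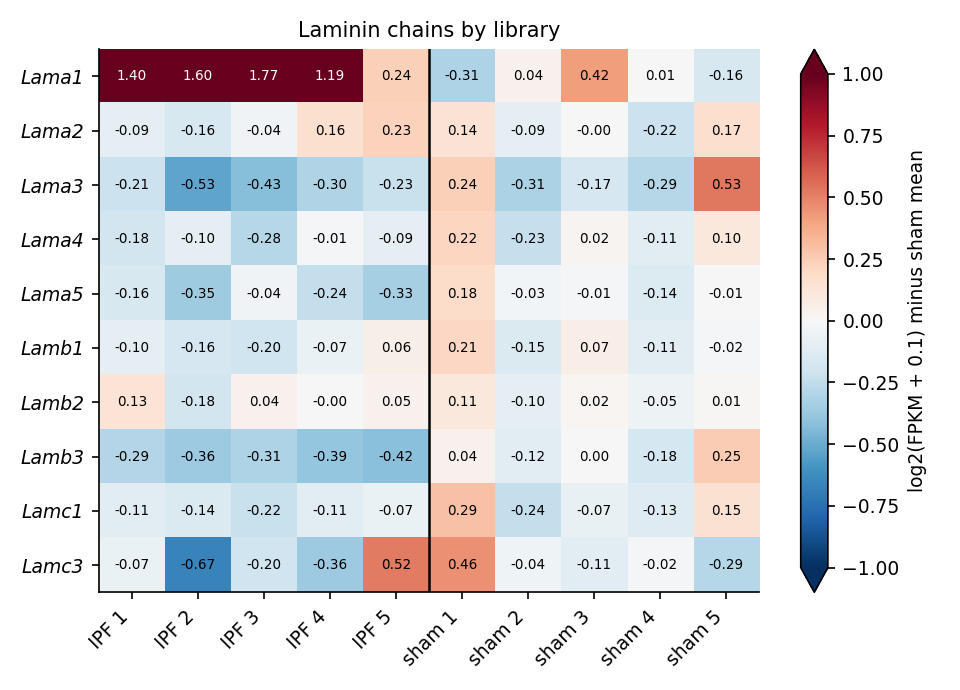
Log2(FPKM + 0.1) of 10 laminin chains in each library minus the sham mean of that chain, with red above and blue below it and colour capped at 1 in either direction. Lamb3 is below the sham mean in all 5 IPF libraries, Lama1 is far above it in IPF replicates 1 to 4, and sham replicates 1 and 5 are high for Lama3.

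The other laminin chains were not called. Lama5, the most widespread alpha chain of adult basement membranes, was at 17.2 ± 1.58 FPKM in IPF and 20.05 ± 1.64 in sham, with 4 of 5 IPF libraries below every sham library (adjusted p = 0.124 from limma). Lama4, a chain of vessel walls, was at 15.2 ± 1.08 and 16.7 ± 2.03 FPKM, and Lama2, the chain of muscle laminins, at 7.00 ± 0.838 and 6.90 ± 0.770 FPKM. Lama1 was the smallest of the 5 alpha chains, at 0.340 to 1.35% of their summed FPKM in IPF and 0.137 to 0.377% in sham.

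Lamb1, a beta chain shared by many laminins, was at 28.7 ± 2.02 FPKM in IPF and 30.7 ± 3.12 in sham. Lamb2, the other widespread beta chain, was at 41.2 ± 3.26 and 40.9 ± 2.21 FPKM, with a 95% interval of -0.14 to 0.15 on the log2 scale. The share of Lamb3 in the FPKM of all 3 beta chains was 18.7 to 21.9% in IPF and 22.8 to 27.6% in sham, which did not overlap and was not tested. Lamc1, the common gamma chain, was at 67.0 ± 2.67 and 73.9 ± 11.3 FPKM, and the rarer Lamc3 at 3.84 ± 1.29 and 4.19 ± 0.893 FPKM.

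Of the 4 genes with an integrin name that encode no subunit, none was called. Itgb1bp1, whose product ICAP-1 binds the tail of beta1 and holds the receptor inactive, held 7.74, 10.2, 9.35, 7.85 and 9.48 FPKM in IPF and 6.14, 7.73, 7.08, 7.64 and 6.82 in sham. The groups did not overlap by a narrow margin, with a log2 difference of 0.33 (limma adjusted p = 0.0712). Itgb1bp2, the muscle protein melusin, is on the X chromosome and was at 0.406 ± 0.118 FPKM in IPF and 0.641 ± 0.268 in sham. Itgb3bp, a centromere protein, was at 0.804 ± 0.177 and 0.912 ± 0.189 FPKM, and Itgbl1, a secreted protein with integrin-like repeats, at 1.67 ± 0.359 and 1.43 ± 0.492 FPKM.

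Genes that work with integrins and laminins were read from lists chosen with earlier results of these data known. Of their 78 genes, 76 were tested. Of these, 5 were called higher and 5 lower, together 13.2% against 5.85% of all genes, and the median log2 fold change was -0.06. In the list of proteins that link integrins to actin, 2 of 25 were called higher and 5 lower, together 28.0%, where 3.71% of all genes were higher and 2.14% lower. Actn1, an actin crosslinker, fell from 33.7 ± 1.69 FPKM in sham to 25.3 ± 1.67 in IPF, which was -0.41 on the log2 scale (adjusted p = 0.00323 from limma). Flna, a filamin that binds beta chain tails, fell from 102 ± 6.88 to 78.3 ± 6.25 FPKM (adjusted p = 0.00951). Fermt2, kindlin-2, which helps talin activate integrins, rose from 75.3 ± 2.95 to 91.0 ± 4.10 FPKM (adjusted p = 0.0129).

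In the list of other basement membrane proteins, 1 of 18 was called. The shares called in this list (5.56%), among laminin receptors that are not integrins (9.09%) and among matrix ligands (7.14%) rested on 1 gene each and lay near the 5.85% of all genes. Egflam, the dystroglycan ligand pikachurin, rose from 23.0 ± 1.49 FPKM in sham to 27.8 ± 1.86 in IPF (adjusted p = 0.0279 from limma), and the median of the list was -0.13. Among laminin receptors that are not integrins, Sdc2, a heparan sulfate proteoglycan, rose from 43.2 ± 3.06 to 51.0 ± 2.87 FPKM (adjusted p = 0.0468) and was the only one of 11 called. Among matrix ligands of integrins, Spp1, osteopontin, rose from 25.4 ± 5.33 to 48.2 ± 9.06 FPKM (adjusted p = 0.00943) and was the only one of 14 called. None of the 8 tested ligands of leukocyte integrins was called by limma. An unadjusted limma p under 0.05 was seen in 3, with 2 higher and 1 lower in IPF, and in 19.5% of all genes.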

How the data were processed

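RNA of whole lung was analysed in 10 libraries (5 IPF, 5 sham). By the study's methods, reads were trimmed with Fastp, aligned with HISAT2 and quantified with StringTie, and the authors deposited FPKM values with gene lengths and positions. The submitters' processing notes instead name Bowtie 0.12.2 and the labels another library kit than the methods, so which steps made the FPKM values is not settled. The notes name GRCm38, mm10 and hg38, the methods name a later mouse build, and gene ends in the file fitted GRCm38. Strand use in counting is not given in the sources used here. FPKM times gene length gave whole reads within 0.02 for 100% of values, from which depth and the voom alternative were taken.

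Genes with a mean of at least 0.1 FPKM were fitted with limma 3.58.1 (R 4.3.3, trended variance) on log2(FPKM + 0.1), IPF against sham with no covariate. The pseudocount makes fold changes of low genes too small. Benjamini-Hochberg adjustment covered all genes tested, and the scripts were tested on simulated data. The p-values measure only the spread between these libraries, which may be technical where libraries are not separate mice. All members but 1, which is not reported here, are named, and of each pathway list the 3 genes with the smallest adjusted p among those called. The members, gene lists and marker lists were chosen with earlier results of these data known. Alternatives covered pseudocount, filter, scaling, block, variance model, sample weights, voom, the genes tested and each library left out.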

Additional observations from a re-analysis of the deposited data

Results flagged for a closer look

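In 82 groups of 5 libraries, 1 per member reported and condition, the highest or lowest library was compared with the others by Dixon's gap over range, and 1 group passed the limit. Chance gives about 1 in 20 groups. Itgb4 in IPF replicate 3 was high, at 2.90 FPKM where the other IPF libraries held 1.06 to 1.34 (gap over range 0.773).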

How the results depend on the processing

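Itga9 was called, with the same direction, under every alternative run. The 4 called members became 2 with no filter on low values, 8 with array weights and 7 with protein-coding genes only, and 1 to 5 with 1 library left out. The share of all genes called moved too, from 5.85% to 2.89%, 8.55% and 9.61% in the first 3 of these. The 2 matrix-binding subunits became 1 with no filter, with quantile normalization and with no variance trend, 4 with array weights, and 1 to 3 with 1 library left out. The 0 leukocyte subunits became 2 with the filter at 1 FPKM, with array weights, with voom and with protein-coding genes only, and 0 to 2 with 1 library left out. The 2 laminin chains became 1 with no filter and 1 with the filter at 1 FPKM, which removes Lama1 from the test, and 0 to 2 with 1 library left out. The single member past the fold limit became 0 with a pseudocount of 1, with no filter and with the filter at 1 FPKM, and 0 to 1 with 1 library left out. The 10 pathway genes became 5 with quantile normalization and 5 with no variance trend, 15 with array weights, 12 with the filter at 1 FPKM and 12 with protein-coding genes only, and 5 to 12 with 1 library left out. Without IPF replicate 3 and sham replicate 1, chosen after seeing the data, 3 members were called, with 0 laminin chains, 0 past the fold limit and 5 pathway genes. Itga1 lost its call with no filter (limma adjusted p = 0.0518), quantile normalization (0.0926) and no variance trend (0.0720), and Lama1 with no filter (0.0643). The cause of these changes was not tested. Counting Itga4 with the matrix-binding subunits changed neither count.

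With the replicate number as a block, 5 members were called, Itgal being added, with 1 leukocyte subunit. Deviations of same-numbered libraries correlated weakly (correlations 0.0953, 0.0388, 0.0290, -0.0204 and 0.0665). In each group 3 of 5 libraries correlated best with their own number. Whether the numbers pair the libraries is thus not settled, and the main fit used no pairing.

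Members with a log2 fold change near 0, none of them called, changed sign. Itga2 went to 0.057 with array weights and 0.054 without both libraries, and from -0.063 to 0.028 with 1 left out. Itga2b went to -0.0010 with median-of-ratios scaling, -0.0074 with quantile normalization, -0.084 with array weights and -0.122 without both libraries, and from -0.090 to 0.099 with 1 left out. Itgav went to 0.0041 without both libraries, and from -0.047 to 0.019 with 1 left out. Lama2 went to -0.0035 with quantile normalization, and from -0.034 to 0.071 with 1 library or both left out. Lamb2 went to -0.00011 with median-of-ratios scaling and -0.053 with quantile normalization, and from -0.025 to 0.054 with 1 left out. With any 1 library, or both of those named, left out, Itga10 ranged from -0.051 to 0.258, Itga6 from -0.074 to 0.066, Itgb1 from -0.045 to 0.024 and Itgb2l from -0.109 to 0.168.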

Other observations

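An antisense gene that overlaps Itga8, E030013I19Rik, rose from a mean of 1.43 FPKM in sham to 2.50 in IPF, a log2 difference of 0.76 (limma adjusted p = 0.00800), while Itga8 had a log2 fold change of -0.04 (95% interval -0.16 to 0.08). It was singled out after its values were seen. Without knowledge of the strand used in counting, reads of the 2 genes cannot be told apart.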
